A study of Sisymbrium orientale with 12 samples.

Results

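The untreated leaf transcriptomes of susceptible Sisymbrium orientale lines from 2 genetic backgrounds were compared. The comparison took 7 of the 12 libraries of the series: the susceptible lines SP3, SP7, SP9 and SRP1 of cross B, at generation F3, against the susceptible lines S205, S207 and S242 of cross A, at generation F4. No line of the other phenotype entered any value below. Sisymbrium orientale (Indian hedge mustard) is a weed of the mustard family, and susceptible means that a line is killed or damaged by 2,4-D, an auxin-type herbicide. None of the plants had been treated with it. All were raised alike in a growth chamber set to 25/20 °C and 16/8 h of light and dark, and the youngest expanded leaf was taken from plants with 4 leaves. Cross and generation go together in every library and cannot be told apart. The labels name neither the parents of the crosses nor the number of plants behind a line, so each line was counted as 1 sample, and p-values measure the spread between these libraries only.

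Lines derived from a cross carry segments of either parent, so lines of different crosses can differ in the alleles they express as well as in how strongly they express a gene. Gene families that vary much within plant species include the nucleotide-binding leucine-rich repeat (NBS-LRR) receptors of immunity, receptor-like kinases, F-box proteins and transposons. Plants of the mustard family store glucosinolates, sulfur compounds that myrosinase enzymes cleave into deterrents when the leaf is wounded, and both the compounds and the enzymes of their breakdown are known to vary between natural accessions.

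The deposited table held 33277 contigs, that is assembled transcripts. The names of 12416 begin with R and those of 20861 with S, for a pair of assemblies. Each contig carried the Arabidopsis locus it resembles most, 16386 loci in all. Values are read counts per contig scaled to library size (CPM), and behind them stood between 128006528 and 136691804 reads per line, so that 3 reads corresponded to between 0.0204 and 0.0259 CPM. Contigs of the Rubisco small chain took 6.62% of all values in S205, 4.34% in S207 and 3.49% in S242, and 4.39%, 4.21%, 5.17% and 4.603% in SP3, SP7, SP9 and SRP1. The means were 4.82 ± 1.62% (SD, n = 3) in cross A and 4.595 ± 0.417% (SD, n = 4) in cross B, with a difference of -0.22 percentage points (two-sided exact permutation p = 0.8, smallest possible 0.0286). Without S205 the difference was 0.68 points in the other direction (exact permutation p = 0.2), so the high share of S205 set its sign. All of the photosystem list's 36 loci found in the table were measured, with a summed level of 46593 to 86638 CPM in cross A and 54198 to 88055 CPM in cross B. Contigs of dividing cells summed to 506, 822 and 1168 CPM in S205, S207 and S242, opposite in order to the Rubisco share, and to between 530 and 736 CPM in cross B. The lines of cross A were thus less alike in leaf state than those of cross B, and the part of this in the results below was not tested except by the values given with them.

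Pairs of lines differed in the same order of size within cross A as between the crosses. Of the 31346 contigs kept, with at least 1 CPM in 3 of the 7 lines, 4.52% to 14.3% stood at least 2-fold apart within the 3 pairs of cross A and 2.43% to 6.46% within the 6 pairs of cross B. Between the crosses the share ran from 6.06% to 18.0% over 12 pairs, with a median of 8.08%. The widest pair within cross A and the widest pair between the crosses both held S205.

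**Figure D1:**
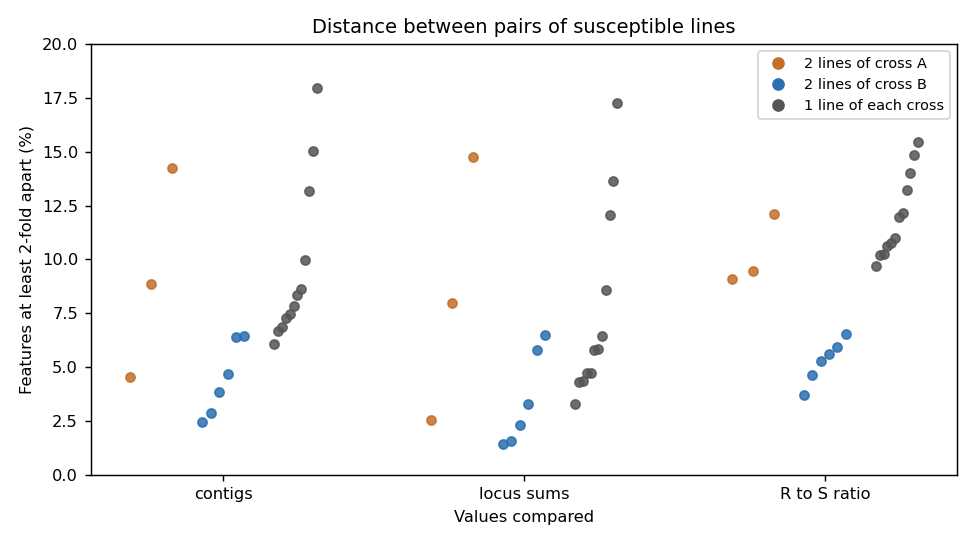
Share of features at least 2-fold apart (y axis, percent) for every pair of susceptible lines, for contigs, for CPM summed per locus and for the R to S ratio per locus, explained with its results below (x axis). Each point is 1 pair of lines. For the ratio, the 12 pairs between the crosses lie between 9.71% and 15.4%. The 3 pairs within cross A overlap this range, between 9.08% and 12.1%, and the 6 pairs within cross B lie between 3.71% and 6.54%.

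At an adjusted p under 0.05 (limma on log2(CPM + 0.5), Benjamini-Hochberg over all contigs), 523 contigs (1.67%) differed between the crosses. In cross B 198 were higher (0.632%) and 325 lower (1.04%), and 411 of the 523 were at least 2-fold apart (1.31%). All 523 had no overlap between the lines of the crosses, against 12.8% of all contigs tested. The calls lay in 342 loci. Contigs of 1 locus can share reads or be alleles of each other, so CPM was also summed per locus: of 16077 locus sums, 69 (0.429%) differed, 18 higher in cross B (0.112%) and 51 lower (0.317%). All 69 had no overlap between the crosses, against 11.9% of all sums. Part of these calls follows from the filter, since a feature under 1 CPM in every line of 1 cross was kept only through the cross in which it is high. This held for 188 of the 325 lower contigs and 75 of the 198 higher ones, and for 21 of the 51 lower sums and 2 of the 18 higher ones. Among features at 1 CPM or more in lines of both crosses, 123 contigs were higher and 137 lower of 30774, and 16 sums were higher and 30 lower of 15982. Of these contigs 0.845% were called, and this share is set beside the gene lists below, since a call through 1 cross alone says nothing about a list. At an unadjusted p under 0.05 there were 3939 contigs and 1737 sums. Of the 342 loci with a called contig, 66 also had a called sum, so at most of these loci single contigs differed while the summed level did not pass. The lower calls came mostly from the S assembly, with 259 lower and 82 higher among 19696 S-assembly contigs tested, whereas 66 of 11650 R-assembly contigs were lower and 116 higher. Of the sums, 38 of 8052 were called at loci with S-assembly contigs alone (0.472%, 30 lower), 22 of 4284 at loci with both assemblies (0.514%, 15 lower) and 9 of 3741 at loci with R-assembly contigs alone (0.241%, 6 lower), against 0.429% of all sums.

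These counts moved with single lines and with the Rubisco share. With 1 line left out, the contig count was 246 without S205, 196 without S207, 302 without SP3 and 316 without SRP1, and the count of sums was 22 without S207, 23 without SP3, 25 without SP7 and 34 without SRP1. A contig silent in cross B cannot reach 1 CPM in 3 lines once a line of cross A is dropped. On the features of the full filter, the contig count without S205, S207 or S242 was 528, 415 or 703. With the Rubisco share as a covariate 1051 contigs and 307 sums were called, and DESeq2 on the recovered reads called 1689 contigs (5.39%) and 746 sums (4.64%), against 441 (1.41%) and 75 (0.467%) by edgeR.

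Some genes were expressed in cross A and nearly absent from cross B. The first 5 below were under 1 CPM in every line of cross B and so passed the filter only through cross A, and their values are given as a description with no test. AT5G33406, annotated as a hAT-type transposase-related protein, stood at 35.2, 66.1 and 33.0 CPM in S205, S207 and S242 and at 0.542, 0.0441, 0.0678 and 0.263 CPM in SP3, SP7, SP9 and SRP1. The lowest line of cross A was far above the highest of cross B, and the log2 difference was -5.93 (SE 0.32). Log2 differences of genes at a few reads depend on the 0.5 CPM added before the logarithm and are no estimate of the true fold. AT4G19510, an immune receptor of the TIR-NBS-LRR class, stood at 22.5, 23.7 and 28.5 CPM in cross A and at 0.0763, 0.213, 0.144 and 0.0557 CPM in cross B (log2 difference -5.35, SE 0.15). AT1G35210, a protein of unknown function, stood at 15.7, 18.1 and 10.5 CPM in cross A, and in cross B SP7 and SRP1 had no read and SP3 and SP9 0.0153 and 0.0170 CPM, which is under the 3-read level. The theta-class glutathione S-transferase AT5G41240, an enzyme family that conjugates glutathione to toxic compounds, stood at 14.0, 11.5 and 6.30 CPM in cross A, and only SP7 of cross B had any read (0.0147 CPM). AT5G55040, a bromodomain protein of the kind that binds acetylated histones, stood at 12.03, 12.2 and 6.07 CPM in cross A, and only SP9 of cross B had any read (0.0170 CPM). In each of these genes S242 had the lowest or the highest value of cross A, yet no line of cross A came near the level of cross B.

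Further sums lower in cross B followed the same pattern at other levels. AT1G10530, a protein of unknown function, had a mean of 35.3 ± 8.41 CPM (SD, n = 3) in cross A and 1.67 ± 0.391 CPM (SD, n = 4) in cross B, so that it was reduced but present in every line. AT4G35420, annotated as a dihydroflavonol 4-reductase-like protein, stood at 27.7, 25.5 and 25.1 CPM in cross A and between 0.740 and 2.75 CPM in cross B (log2 difference -3.72, limma adjusted p = 0.00377). The putative carriers AT3G55090 (ABC-2 type) and AT1G71680 (amino acid transporter family) had 6.16 ± 2.23 and 6.09 ± 2.70 CPM in cross A, with at most 0.0159 and 0.0318 CPM in any line of cross B. AT3G17020, of the adenine nucleotide alpha hydrolase-like family, stood at 7.43 ± 3.096 CPM in cross A and at most 0.0678 CPM in cross B. These 3 also passed the filter only through cross A. The protein kinase AT4G12020 stood at 12.4 ± 3.51 CPM in cross A and 0.733 ± 0.217 CPM in cross B (log2 difference -3.37, limma adjusted p = 0.000968). In cross B it reached 1 CPM in SP7 alone (1.06 CPM), so cross A carried it through the filter of 3 lines, and its p-value has that limit. The transposase AT3G30200 of the Ptta/En/Spm family stood at 21.0, 19.5 and 12.1 CPM in cross A and at 0.282, 1.35, 2.07 and 0.143 CPM in cross B (log2 difference -3.82, limma adjusted p = 0.0343). Only SP7 and SP9 of cross B reached 1 CPM, so this transposase too met the filter of 3 lines with the help of cross A. Its call ended when a line was left out, on the loci of the full filter, with adjusted p-values of 0.0673 to 0.166 without S205, S207, S242, SP3, SP7 or SRP1.

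Of the 69 called sums 18 were higher in cross B, but this split moved with the setting, to 44 higher and 47 lower without S242 on the full filter, 34 and 22 without S242 with the filter repeated, 102 and 121 without S205 and SP9 on the full filter, 144 and 163 with the Rubisco covariate, and 366 and 380 by DESeq2. The tau-class glutathione S-transferase GSTU10 (AT1G74590) stood at 0.0518, 0.120 and 0 CPM in S205, S207 and S242 and at 5.25, 5.54, 8.44 and 5.19 CPM in SP3, SP7, SP9 and SRP1 (log2 difference 3.55, SE 0.20), and passed the filter only through cross B. AT3G57240, a beta-glucanase of the family that cleaves callose and fungal wall glucans, stood at 0.932, 1.33 and 1.64 CPM in cross A and at 30.4, 19.3, 12.6 and 17.9 CPM in cross B (log2 difference 3.46, SE 0.29, limma adjusted p = 0.00381). The call of AT3G57240 was kept with each line left out in turn, here and below on the features of the full filter. Of the 12 largest increases, the 10 besides these each lost the call without SP3, without SP7 and without SRP1, and 8, 6, 5 and 4 of them without S207, S242, SP9 and S205, at adjusted p-values of 0.0506 to 0.184. Among these 10, LTP3 (AT5G59320), a lipid transfer protein, stood at 6.85, 5.70 and 11.1 CPM in cross A and at 31.8, 31.5, 31.4 and 23.9 CPM in cross B (log2 difference 1.89, SE 0.22, limma adjusted p = 0.0206). The GDSL lipase AT2G03980 had means of 10.3 ± 4.13 and 33.8 ± 2.92 CPM in crosses A and B, and the 2-oxoglutarate-dependent oxygenase AT4G10490 had 0.795 ± 0.443 and 10.8 ± 6.07 CPM. The putative transporters AT1G28010 (P-glycoprotein 14) and AT3G45680 (major facilitator family) had 2.496 ± 0.583 against 7.70 ± 1.03 CPM and 2.499 ± 0.620 against 8.29 ± 1.49 CPM. AT3G16460, a mannose-binding lectin family protein, had 2.49 ± 0.588 against 7.65 ± 1.17 CPM. The remaining 4 were AT3G60470 and AT2G17550, of unknown function, the 2-oxoglutarate-dependent oxidoreductase AT2G22260 and the TRAF-like AT3G58250, which passed the filter only through cross B, with log2 differences from 1.41 to 2.25.

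**Figure D2:**
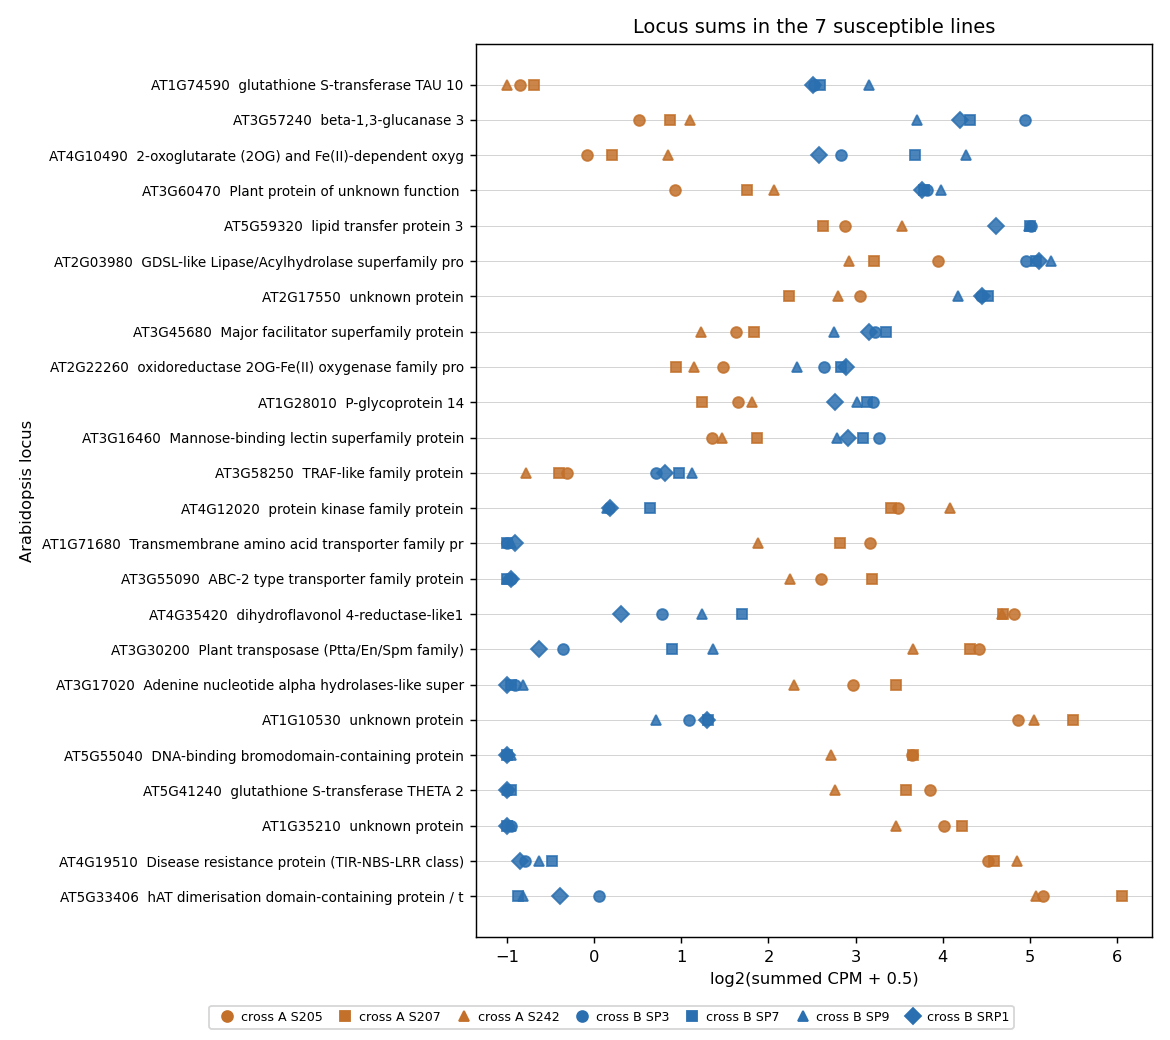
Summed level of the 12 loci with the largest increase (top) and the 12 with the largest decrease (bottom) in cross B among the 69 called, as log2(summed CPM + 0.5) on the x axis, with 1 row per locus and 1 point per line. The rows were chosen among called sums with no overlap between the 3 lines of cross A and the 4 lines of cross B, so none has any. In 8 of the lower rows every line of cross B lies under 0.6 CPM.

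Immune receptors and receptor kinases differed at a few loci. Of 212 contigs of NBS-LRR receptors tested, 9 were lower in cross B and 1 was higher (4.72% called, against 1.67% of all contigs, with 1.04% lower and 0.632% higher), and the median log2 difference was 0.13, against -0.00 over all contigs tested. All 9 lower contigs passed the filter only through cross A, so this share is no result about the family. Of the 199 at 1 CPM or more in lines of both crosses 1 was called (0.503%, against 0.845%). The 9 lower contigs belonged to 4 loci. Besides AT4G19510, whose 2 contigs were both lower, these included AT4G12010, a TIR-NBS-LRR receptor with 5 lower contigs. Its sum stood at 7.03, 7.07 and 8.83 CPM in cross A and at 0.641, 0.698, 0.678 and 0.732 CPM in cross B (log2 difference -2.77, SE 0.14), so that it passed the filter only through cross A. A contig of the CC-NBS-LRR receptor AT5G66900 had 12.7, 4.86 and 12.5 CPM in cross A and a single line of cross B with any reads (SP9, 0.0170 CPM), but the sum of that locus did not pass (log2 difference -0.61, limma adjusted p = 0.539). Among 509 contigs of receptor and lectin kinases, 10 were lower and 7 higher (3.34% called, against 1.67% of all contigs, median 0.10), and of the lower ones 4 were isoforms of AT2G36570 and 3 each belonged to AT4G23160 and AT4G39400. Without the 10 calls through 1 cross alone, 6 were higher and 1 lower of 491 (1.43%, against 0.845%). The 6 higher ones were 3 contigs of AT1G53430 and single contigs of AT5G49760, AT4G37250 and AT1G74190, so the share rests on few loci. No sum of these loci was called (limma adjusted p 0.0631 to 0.373). AT4G23160, annotated as a cysteine-rich receptor-like kinase, had a sum of 21.4, 23.6 and 27.9 CPM in cross A and 5.62, 4.76, 4.99 and 5.60 CPM in cross B (log2 difference -2.11, SE 0.12, limma adjusted p = 0.000630). The sums named here for AT4G12010 and AT4G23160 were chosen after their values were seen. AT4G39400, the locus of the brassinosteroid receptor BRI1 in Arabidopsis, had 3 lower contigs, 1 of them at 2.02, 2.32 and 2.03 CPM in cross A and without a read in cross B. Its sum did not differ beyond the test (log2 difference 0.06, limma adjusted p = 0.844), and its R-assembly contigs together stood at 68.3 to 76.4 CPM in cross A and 66.7 to 83.2 CPM in cross B. Such families have near-identical copies, so the assignment of a read to 1 locus is uncertain.

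F-box proteins, which choose targets for degradation, had 11 lower contigs and 1 higher among 276 (4.35% called, against 1.67% of all contigs, median 0.01), and 5 of the lower ones were isoforms of AT1G11270. Leaving aside 6 calls through 1 cross alone, 6 of 266 were lower (2.26%, against 0.845%). The sums of 2 F-box loci were called, both lower. AT1G11270 fell through its S-assembly contigs, from 39.0, 40.4 and 45.4 CPM in cross A to 13.4, 13.8, 13.7 and 13.3 CPM in cross B, while its R-assembly contig stood at 6.70 to 7.57 and 6.63 to 8.91 CPM. The transposon-like list had 11 lower contigs of 42 and none higher (26.2% called, against 1.67% of all contigs), but 10 of these were isoforms of AT5G33406 that passed the filter only through cross A, and the 11th was AT3G30200, so the share is no result about the list. In lines of both crosses that 1 call stood among 32 contigs. The list's median was -0.07.

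Contigs of several genes of glucosinolate breakdown fell in cross B, while no locus sum of the list passed. Of 49 contigs of myrosinases and specifier proteins tested, 8 were lower and none higher, in 5 of the 9 loci (16.3% called, against 1.67% of all contigs). The median log2 difference was -1.10 over the contigs, against -0.00 over all contigs tested, but -0.49 over the 9 locus sums, of which 4 were above 0. All but 1 of the 8 were at 1 CPM or more in lines of both crosses, 7 of 47 such contigs (14.9%, against 0.845%). The contigs are not independent: 4 of the 8 belong to TGG2 (AT5G25980), 1 of the classical myrosinases of Arabidopsis leaves, which is stored in guard cells and phloem idioblasts. An S-assembly contig of TGG2 stood at 260, 151 and 240 CPM in S205, S207 and S242 and at 24.1, 32.7, 55.4 and 30.8 CPM in SP3, SP7, SP9 and SRP1 (log2 difference -2.61, SE 0.31, limma adjusted p = 0.00767). An R-assembly contig of the same locus had means of 169 ± 23.3 and 53.8 ± 14.1 CPM (log2 difference -1.67, limma adjusted p = 0.0105), and lost its call without S205 (0.0548) or S207 (0.0759) when the filter was repeated on the 6 remaining lines. Summed over its 18 contigs, TGG2 stood at 3733, 2461 and 3013 CPM in cross A and at 902, 846, 1370 and 1055 CPM in cross B. The groups did not overlap and the log2 difference was -1.56 (SE 0.24), but the adjusted p of 0.0542 (limma) missed the threshold, while edgeR gave an adjusted p of 0.0496. The sums of TGG2, TGG1 and the genes below were looked at after the contigs were seen. TGG1 (AT5G26000), the second classical myrosinase, had 1 called contig (35.5 ± 2.67 against 13.1 ± 3.11 CPM, log2 difference -1.43, limma adjusted p = 0.0116), which lost its call in the same way (0.0625 and 0.0759). Its sum overlapped, with 883 CPM in S207 inside the range of 700 to 1001 CPM of cross B (log2 difference -0.84, limma adjusted p = 0.368). BGLU18, a beta-glucosidase, had 1 contig at 39.7 ± 24.3 against 3.64 ± 0.517 CPM (log2 difference -3.13, limma adjusted p = 0.00555), but the sums overlapped (193 to 346 against 127 to 342 CPM). The nitrile specifiers NSP1 and NSP2, which steer breakdown towards nitriles, had 1 lower contig each. The sum of NSP1 was 3.27 to 5.27 CPM in cross A and 1.27 to 2.66 CPM in cross B (log2 difference -1.16, limma adjusted p = 0.153), and that of NSP2 overlapped (log2 difference 0.35). The epithiospecifier ESP stood at 1711 to 2691 and 1414 to 3359 CPM. Stomatal lineage and guard cell genes also had a median below 0 (-0.26, given with the other cell types below), and their part in the TGG values was not tested.

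Of 50 contigs of glucosinolate synthesis, 1 was higher and 1 lower (4% called, against 1.67% of all contigs), and the median was 0.35. Above 0 on the log2 scale were 36 of the 50 contigs and 21 of the 30 sums, against 49.5% and 51.9% of all tested, and no sum was called. CYP79B2 (AT4G39950), which makes the precursor of the indole glucosinolates and of camalexin from tryptophan, stood at 69.1, 118 and 94.9 CPM in cross A and at 39.0, 47.8, 32.6 and 37.2 CPM in cross B. Its single contig was called (log2 difference -1.23, SE 0.21, limma adjusted p = 0.0367), whereas the same values had an adjusted p of 0.0641 among the locus sums. Without S207, S242, SP3, SP7, SP9 or SRP1 the contig did not pass (adjusted p 0.0563 to 0.134). A pair of genes of the aliphatic branch, whose side chains come from methionine, varied widely within cross A. MAM1, which elongates the chain, stood at 574, 106 and 440 CPM in S205, S207 and S242 against 505 to 1066 CPM in cross B (log2 difference 1.301, SE 0.60, limma adjusted p = 0.494). CYP79F1, which starts the core pathway from elongated methionine, had 239, 21.5 and 153 CPM in cross A against 210 to 478 CPM in cross B (log2 difference 1.73, SE 0.79, limma adjusted p = 0.491). S207 had the lowest value of all 7 lines for both genes. GSTU20, counted with this pathway, was the higher contig and is described with the ratios below.

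Flavonoid genes stood lower in cross B without passing as sums: all 14 sums were below 0 on the log2 scale, with a median difference of -0.63, whereas 51.9% of all sums tested were above 0 and their median was 0.01. The flavonoid 3'-hydroxylase gene F3'H (AT5G07990), whose product adds a hydroxyl group to the B ring of flavonoids, stood at 10.1, 14.6 and 15.9 CPM in cross A and at 5.18, 5.93, 5.71 and 4.099 CPM in cross B. As a contig it was called (log2 difference -1.28, SE 0.19, limma adjusted p = 0.0209) and as a sum it was not (adjusted p = 0.0515), and the contig lost its call without S207, S242, SP3, SP7 or SRP1 (adjusted p 0.0515 to 0.0900). Chalcone synthase (CHS), the first enzyme, overlapped between the crosses, at 436 to 966 and 499.8 to 595 CPM. Late genes were high in S242 alone, with 26.0 CPM of DFR and 27.3 CPM of UGT75C1 there, 6.31 to 8.55 CPM of the 2 genes in S205 and S207, and 2.28 to 12.6 CPM in cross B. The summed flavonoid list reached 1440 CPM in S205, 906 in S207 and 841 in S242, against 745 to 913 CPM in cross B.

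**Figure D3:**
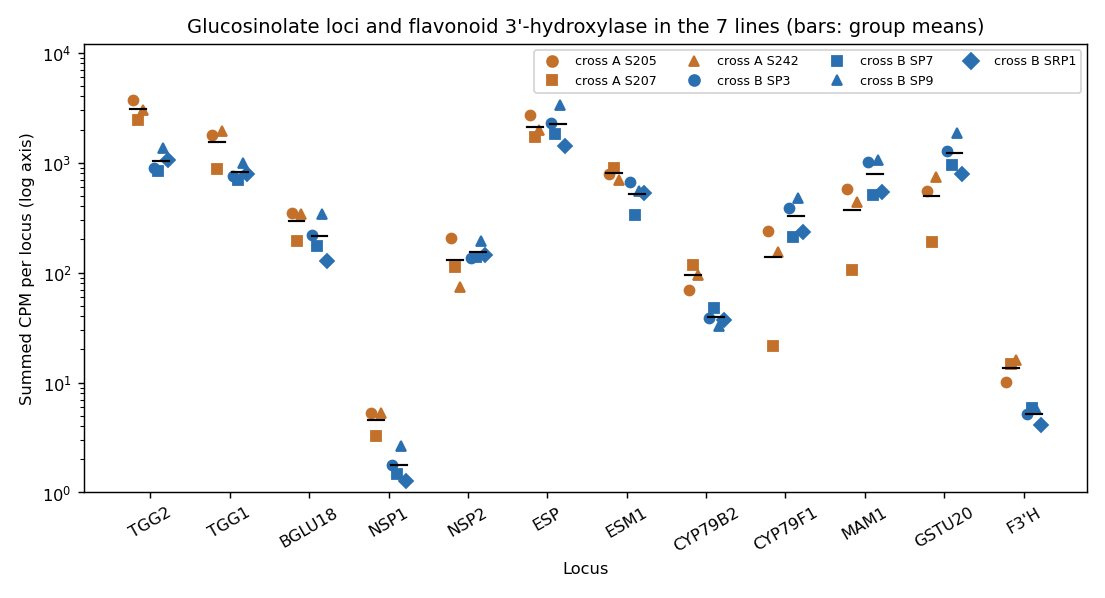
Summed CPM per locus (y axis, log scale) of glucosinolate breakdown genes (TGG2 to ESM1), glucosinolate synthesis genes (CYP79B2 to GSTU20) and F3'H. Each point is 1 line and black bars are group means. TGG2, NSP1, ESM1, CYP79B2, GSTU20 and F3'H show no overlap between the crosses, and none of these sums passed the test. Of all sums tested 11.9% show no overlap, and the loci drawn were picked from their lists, so nothing is read from this number.

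Glutathione S-transferases had 4 contigs higher and 3 lower among 60 (11.7% called, against 1.67% of all contigs, median -0.13): GSTU10 (2 contigs), GSTU19 and GSTU20 were higher, and the theta-class AT5G41240 (2 contigs) and another contig of GSTU19 were lower. Of these 7, 4 passed through 1 cross alone, which left 3 of 55 (5.45%, against 0.845%). These 3 were both contigs of GSTU19 and that of GSTU20, neighbouring copies whose sums did not pass. The share is therefore no result about the family. Cytochromes P450 had 2 higher and 3 lower contigs among 188 (2.66%, near the 1.67% of all contigs, median -0.14), or 3 of 182 (1.65%, against 0.845%) without those through 1 cross alone, which is no result about the family. A contig of AT5G05260 (CYP79A2) had no read in S205 and S207, 0.0612 CPM in S242 and 6.70, 6.13, 3.31 and 6.15 CPM in cross B (log2 difference 3.51), with a sum that did not pass (log2 difference 1.55, limma adjusted p = 0.0696). Another isoform of the same assembled gene is annotated as the M50 peptidase AT4G20310 and was higher too, so its naming as a P450 is uncertain. A contig of the CYP96A8 locus AT1G47620 stood at 3.203, 2.71 and 1.45 CPM in cross A and had reads in a single line of cross B (SRP1, 0.0159 CPM). The other silent isoforms of its assembled gene are annotated as AT3G57990, of unknown function, so its naming as a P450 is uncertain too. UDP-glycosyltransferases, which attach sugars to small molecules, had 4 higher and 7 lower contigs among 177 (6.21% called, against 1.67% of all contigs, median -0.15), or 4 and 2 among 153 (3.92%, against 0.845%) without those through 1 cross alone. AT4G15480 carried 4 of the lower ones and a sum of 208, 225 and 210 CPM in cross A against 130, 125, 117 and 118 CPM in cross B (log2 difference -0.80, SE 0.09, limma adjusted p = 0.0138). This sum was chosen after its values were seen, and it lost its call without S207, SP3, SP7 or SRP1 (adjusted p 0.0669 to 0.0796). The list of ABC transporters, drawn by annotation wording, had 3 higher contigs, 2 of pleiotropic drug resistance 5 (AT2G37280) and 1 of P-glycoprotein 14, and 1 lower among 85 (4.71% called, against 1.67% of all contigs, median 0.09), none of them through 1 cross alone. The wording left out the ABC-2 type carrier AT3G55090 described above, which was lower in cross B and passed the filter only through cross A. The counts therefore hold for the list and not for the whole family. The single calls of this list each ended without at least 3 of the lines.

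Lists of primary metabolism had 0 to 2 called contigs, which in lists of this size is near the 1.67% of all contigs and no result about them. No contig of the photosystem list passed (0 of 58, median 0.03), nor of the Rubisco small chain (0 of 7), chlorophyll synthesis (0 of 26), starch (0 of 32), nitrate assimilation (0 of 17), the circadian clock (0 of 44) or aquaporins (0 of 38). Among Calvin cycle and photorespiration contigs 2 of 50 were lower, both of GGAT1, the peroxisomal glutamate:glyoxylate aminotransferase. They stood at 9.29, 9.12 and 3.92 CPM and at 7.35, 7.49 and 2.99 CPM in cross A and at most at 0.0294 CPM in cross B, and so passed the filter only through cross A. Its sum, at 525 to 1373 CPM in cross A and 560 to 907 CPM in cross B, did not pass (log2 difference -0.28, limma adjusted p = 0.772). Ribosomal protein contigs had 1 call of 487 (0.205%) and a median of 0.29, with summed levels of 44863 to 61670 CPM in cross A and 50134 to 72883 CPM in cross B. In several of these lists most sums lay on 1 side of 0 without a call, with 3 of 23 Calvin cycle sums above 0 (median -0.18), 2 of 16 starch sums (median -0.14) and 228 of 269 ribosomal sums (median 0.30), against 51.9% of all sums.

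In the auxin pathway, on which 2,4-D acts, no sum was called. With 0.429% of all sums and 1.67% of all contigs called, a count of 0 in lists this small is near the background and is no result about the pathway. None of 32 contigs of the Aux/IAA repressors passed (median 0.10), none of 29 contigs of SAUR, GH3 and other output genes (median 0.08) and none of 7 contigs of auxin synthesis. IAA2 (AT3G23030), the gene named in the title of the series, stood at 11.98, 10.2 and 5.33 CPM in cross A and at 7.39, 10.3, 10.7 and 11.3 CPM in cross B for its most abundant contig (log2 difference 0.16, SE 0.28, limma adjusted p = 0.837). All 4 of its contigs had small positive differences, and all turned negative without S242, so the sign rested on that line. Its R to S ratio was 0.513 to 0.561 in cross A and 0.523 to 0.548 in cross B. The auxin response factor ARF17 had 1 lower contig (17.2 ± 4.30 against 8.86 ± 0.621 CPM, log2 difference -0.89, limma adjusted p = 0.0492), which lost its call without S207, S242, SP3, SP7, SP9 or SRP1 (0.0541 to 0.166). Its R-assembly contig stood at 7.32 to 15.4 CPM in cross A and 9.55 to 11.7 CPM in cross B, and its R to S ratio was called (0.99, limma adjusted p = 0.00831). The auxin efflux carrier PIN7 had 2 lower contigs, at 5.03, 5.67 and 2.86 CPM and 2.46, 2.49 and 1.59 CPM in cross A. In cross B the first had no read in any line and the second was seen in SRP1 alone (0.0159 CPM). Both contigs thus passed the filter only through cross A. The summed level of PIN7, at 47.0 to 67.5 CPM in cross A and 26.5 to 42.0 CPM in cross B, did not overlap between the crosses but did not pass (log2 difference -0.90, limma adjusted p = 0.154), whereas its R to S ratio was called (0.69, adjusted p = 0.0270).

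Lists that mark other cell types of a leaf, or other states, had 0 to 2 calls each apart from the J-domain wording named last, which is near the 1.67% of all contigs in lists this small and no result about them. Stomatal lineage and guard cell genes had 0 of 48 contigs called, 1 of 48 above 0 on the log2 scale (49.5% of all contigs tested were) and a median of -0.26, and their summed level was 501, 650 and 637 CPM in S205, S207 and S242 and 457 to 534 CPM in cross B. In bulk leaf RNA, fewer cells of a type and less RNA per cell cannot be told apart. Vascular and secondary wall genes had 17 of 19 contigs above 0 (median 0.24, 0 called), and trichome, dividing-cell, wax, senescence, heat shock, jasmonate, ethylene, cold and abscisic acid, iron, sulfur, phosphate and WRKY factor lists had 0 calls. The medians of the sums of these last lists ran from -0.48 for heat shock (2 of 11 above 0), -0.33 for cold and abscisic acid (3 of 11) and -0.33 for iron (3 of 9) to 0.30 for sulfur (7 of 10). Among flowering genes 1 contig of MAF4, a MADS-box repressor of flowering, was lower (3.13 ± 0.619 against 0.465 ± 0.333 CPM, log2 difference -1.95), with 1 call in 44 contigs, and passed the filter only through cross A. CMT3, a chromomethylase that maintains DNA methylation outside CG sites, had 2 higher contigs (3.22 ± 0.461 against 5.97 ± 0.527 CPM for the first, log2 difference 0.80, limma adjusted p = 0.0260), and its sum did not pass (0.93, adjusted p = 0.0741). The call of this contig ended without S205, S207, SP3, SP7 or SRP1 (0.0515 to 0.110). The remaining lists with calls held SAG101 (1 lower contig), OM66 (1 higher), 2 wall-loosening contigs that were higher and the annotation's J-domain and heat shock wording (6 lower, of which 5 belong to AT1G44780, and 1 higher of 384, or 1.82%, near the 1.67% of all contigs). The contig of OM66 was under 1 CPM in every line of cross A and passed the filter only through cross B, and that of SAG101 only through cross A. On the full filter the call of OM66 ended without 6 of the 7 lines left out in turn, and that of the wall contig of AT3G09405 also without 6. Those of 3 AT1G44780 contigs ended without 4 to 6 and that of the higher J-domain contig of AT1G30280 without 5.

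A different view of the 2 backgrounds came from the 4284 loci with contigs of both assemblies. For each, the summed CPM of R-assembly contigs was divided by that of S-assembly contigs (the R to S ratio), with 0.5 CPM added to both, so that a locus at which the crosses match different contigs shows as a change in the ratio. The added 0.5 CPM draws the ratio of genes near or below 1 CPM towards 1. The ratio differed at 143 loci (3.34%), of which 114 shifted towards R-assembly contigs in cross B (2.66%) and 29 towards S-assembly contigs (0.677%), with 625 loci at an unadjusted p under 0.05 and no overlap between the crosses at 13.7% of all loci tested. At 105 of the 143 the R and S sums moved in opposite directions. Loci chosen for a changed ratio favour such movement, so nothing is read from this count. Its share over all 4284 loci was not counted. At all 18 called loci where both moved by at least 1 in opposite directions on the log2 scale, the R assembly was higher in cross B. These 18 come from the same 143 loci, most of which shifted towards the R assembly. The matching count over all 4284 loci was not made either, so nothing is read from their direction. At 133 of the 143 the summed level was not called. At the other 10 it was, against 22 of all 4284 sums at loci with both assemblies (0.514%). The median absolute log2 difference of the sums was 0.284 at the 143 loci and 0.152 at all loci with both assemblies. The ratio count fell to 82 without SP3, 77 without SP7 and 93 without SRP1, and rose to 252 (150 and 102) without S242.

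The exchange was nearly complete at some loci. At AT1G78915, a tetratricopeptide repeat protein, the R-assembly contig had 0.294, 0.187 and 0.184 CPM in S205, S207 and S242 and 74.2, 69.2, 87.1 and 80.7 CPM in SP3, SP7, SP9 and SRP1. The S-assembly contig did the reverse, with 81.8, 66.3 and 55.4 CPM in cross A and 0.252, 0.221, 0.237 and 0.199 CPM in cross B. The ratio differed by 13.3 on the log2 scale (SE 0.12, limma adjusted p = 5.35e-08), while the summed level differed by 0.21 (adjusted p = 0.630). AT1G75860, of unknown function, had an R-assembly sum of 0.328 to 0.612 CPM in cross A and 26.3 to 49.5 CPM in cross B, and an S-assembly sum of 29.2 to 51.1 and 0.254 to 0.625 CPM. Its summed level differed by -0.08 (limma adjusted p = 0.922). The tau-class glutathione S-transferase GSTU19 (AT1G78380) had 4.91, 3.34 and 5.83 CPM on its R-assembly contig in cross A and 268, 215, 309 and 194 CPM in cross B. Its S-assembly contigs stood at 335 to 410 CPM in cross A and 133 to 213 CPM in cross B, so that cross B matched both kinds, and the sums differed by 0.06 (adjusted p = 0.924). GSTU20 (AT1G78370), an enzyme of aliphatic glucosinolate synthesis, had 36.5, 20.06 and 45.6 CPM on its R-assembly contig in cross A and 1200, 887, 1724 and 744 CPM in cross B, against 510, 171 and 693 and 46.8 to 134 CPM on its S-assembly contig. Its ratio differed by 7.41 (limma adjusted p = 6.49e-06) and its sum by 1.44 (SE 0.50, adjusted p = 0.362), with no overlap between the crosses (191 to 739 against 791 to 1858 CPM). GSTU19 and GSTU20 are neighbouring copies in Arabidopsis, so reads may be shared between them. The pentatricopeptide repeat gene AT1G74580, the MADS-box gene AT1G18750 (AGAMOUS-like 65) and AT1G78790 and AT1G74530, of unknown function, behaved alike, with ratio differences of 7.20, 5.85, 7.99 and 7.41 and sums that differed by 0.87, -0.28, -0.74 and -0.36, of which the first was called (adjusted p = 0.0418).

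Other loci lost 1 kind of contig and kept the other. At AT2G48120, the pale cress gene needed for chloroplast development, the R-assembly contig stood at 56.0, 83.1 and 91.4 CPM in cross A and at 0.0763, 0.0882, 0.0509 and 0.0796 CPM in cross B, whereas the S-assembly contig stood at 38.3 to 102 and 78.7 to 116 CPM. The ratio differed by -7.52 (limma adjusted p = 6.60e-06) and the summed level by -0.56 (adjusted p = 0.504). AT3G13690, a protein kinase, gained an R-assembly contig in cross B (5.79 to 18.8 CPM against at most 0.0173 CPM), with its S-assembly contig at 77.4 to 108 CPM in cross B and 86.6 to 128 CPM in cross A. At AT2G25870, of the haloacid dehalogenase family, an S-assembly contig rose, at 37.4 to 73.1 CPM in cross B and 0.906 to 1.89 CPM in cross A. AT4G28070, an AFG1-like ATPase, kept its R-assembly level (3.27 to 3.88 and 2.89 to 3.70 CPM) while its S-assembly sum fell from 56.2 to 62.4 CPM in cross A to 7.91 to 9.16 CPM in cross B, and here the summed level fell as well (-2.33, limma adjusted p = 0.000132). The Rab escort protein gene AT3G06540 had an S-assembly contig at 33.4 to 37.8 CPM in cross A and at most 0.0610 CPM in cross B, and a sum of 60.5 ± 5.11 against 23.5 ± 1.27 CPM (log2 difference -1.35, limma adjusted p = 0.00136). The last 2 sums were chosen after their values were seen.

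**Figure D4:**
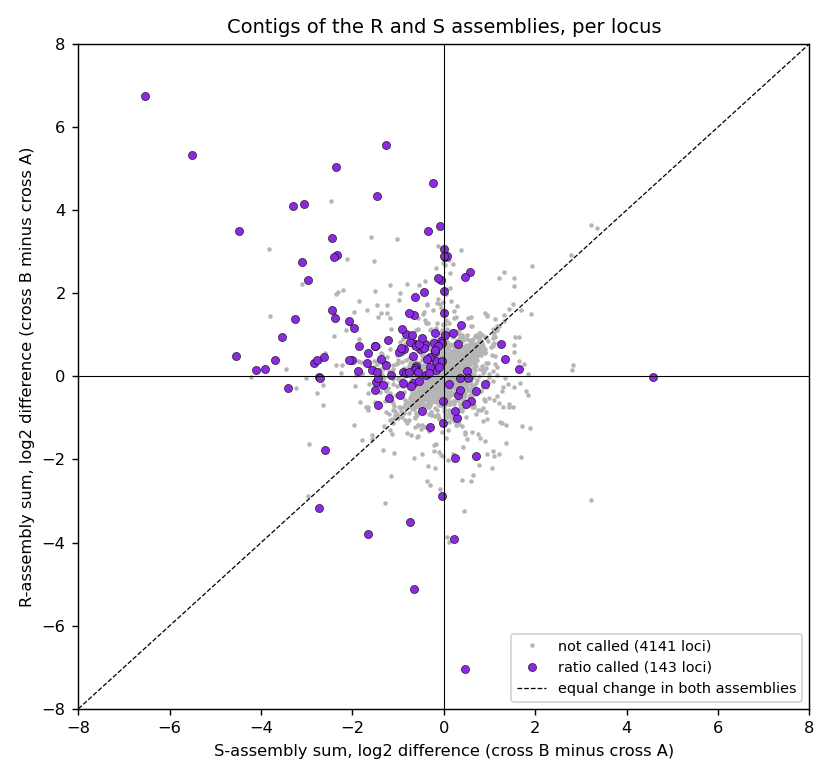
Log2 difference between the crosses (cross B minus cross A) of the S-assembly sum (x axis) and the R-assembly sum (y axis) for each locus with contigs of both assemblies. Purple points are the 143 loci with a called ratio, grey points the rest, and the dashed line marks equal change in both. Called loci reach far into the upper left, where R-assembly contigs are higher and S-assembly contigs lower in cross B, and none lies in the lower right with both changes of at least 1.

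The called ratios were unevenly spread over the Arabidopsis order of the loci, although Sisymbrium may have another order. In windows of 100 consecutive loci with a tested ratio the median share called was 3%. The 2 windows at the end of Arabidopsis chromosome 1 stood highest, with 13 of 55 loci (23.6%) from AT1G78430 to AT1G80940 and 15 of 100 (15%) from AT1G73150 to AT1G78380. Together they held 28 of 155 (18.1%), of which 27 shifted towards the R assembly in cross B, against 115 of 4129 (2.79%) elsewhere. These windows were singled out for their share, so the contrast is a description with no test. The locus sums in the same stretch were called at 3 of 551 (0.544%), near the 0.425% of all other loci. The loci there with the smallest p included AT1G75850, a VPS35 homologue of the retromer complex, with a ratio of 0.413, 0.413 and 0.425 in cross A and 5.71, 5.94, 5.25 and 5.98 in cross B, and AT1G79500, an aldolase-type protein, with 0.255, 0.268 and 0.263 against 2.39, 2.21, 2.33 and 2.23. AT1G78810, of unknown function, had 0.731 to 0.895 against 16.5 to 20.3. The next window, AT2G22610 to AT2G28510, had 11 of 100 loci called. There AT2G27720, an acidic protein of the large ribosomal subunit, had 0.861 and 0.865 in S205 and S207, 1.72 in S242 and 3.79 to 4.03 in cross B, and lost its call without SP3, SP7 or SRP1 (limma adjusted p 0.0538 to 0.0595). Called sums were most frequent on Arabidopsis chromosome 3, with 24 of 3180 (0.755%), and least on chromosome 5 (0.211%).

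**Figure D5:**
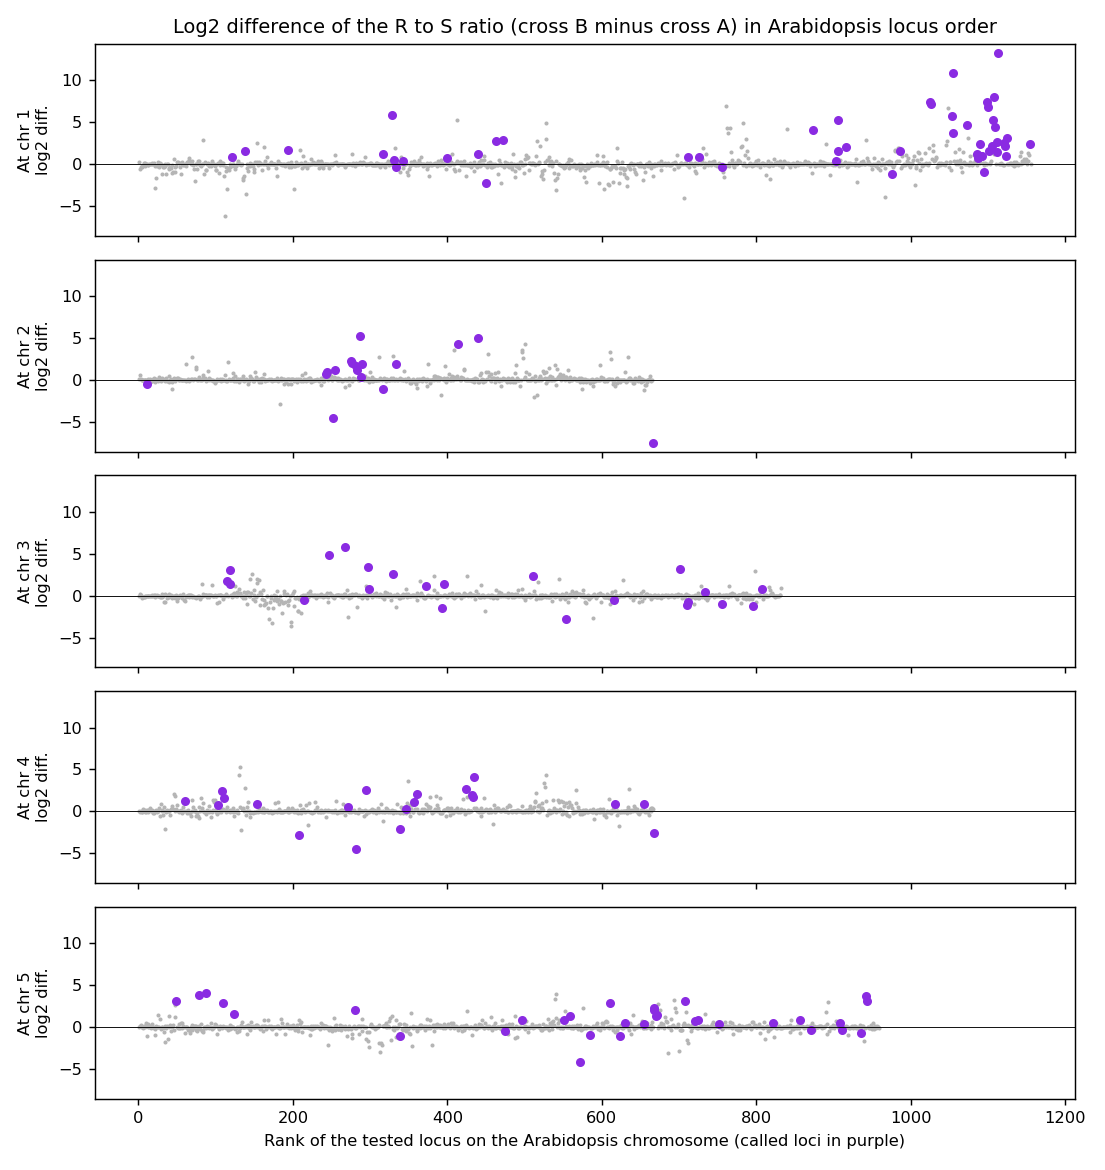
Log2 difference of the R to S ratio (cross B minus cross A, y axis) for each tested locus, ordered by rank along the 5 Arabidopsis chromosomes (x axis, 1 panel per chromosome). Purple points are called loci. The called loci at the right end of chromosome 1 lie close together and nearly all above 0.

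Contigs silent in 1 background were mostly silent in cross B. At most 0.1 CPM in every line of cross B and at least 1 CPM in every line of cross A was found for 105 contigs (0.335%), 88 of the S assembly and 17 of the R assembly, in 60 loci. The opposite was found for 8 contigs (0.0255%), all of the R assembly, in 7 loci. The sum was called at 25 of the 60 loci and at 2 of the 7, against 0.429% of all sums, but choosing loci by contigs near 0 in 1 cross fixes this share in part, so nothing is read from it. Of the 105, 9 were isoforms of AT5G33406, and 4 each belonged to the receptor-like kinase AT2G36570, the pyridoxal phosphate enzyme AT3G26115, and AT3G57990 and AT3G60320, of unknown function. Immune genes among the 60 loci included AT4G19500, AT4G19510, AT5G66900, SAG101, which acts with EDS1 in receptor signalling, and EDM2 (AT5G55390). They were picked by function and their share over all loci was not counted, so nothing is read from them about immunity. S-assembly contigs of AT4G19500 and AT4G19510 are isoforms of 1 assembled gene, and the SAG101 contig carries the same cluster number. The sums of AT4G19500, AT5G66900 and EDM2 were not called (limma adjusted p = 0.142, 0.539 and 0.175). The contig of SAG101 had 2.61, 3.17 and 3.99 CPM in cross A and reads in SP9 alone (0.0170 CPM), and the sum over its locus did not pass (log2 difference -0.20, limma adjusted p = 0.596). The 7 loci with contigs silent in cross A were AT1G74580, AT1G18750, AT1G74530, AT1G74590, AT1G78790, AT3G13690 and AT5G05260, all described above. Called contigs were about as long as all contigs tested, with a median of 1460 against 1578 bases, and were expressed at a median of 2.95 against 6.89 CPM.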

How the data were processed

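Total RNA of 12 leaf samples was sequenced as stranded poly(A) libraries, per the labels' protocols, and the 7 susceptible ones are used. The authors deposited normalized coverage signal per contig, read counts scaled to library size, with column sums of 915639 to 1180040, so the values are called CPM and the planned tests for CPM were kept. The submitters' processing notes name Bowtie2, SAMtools 1.3.1, R 3.3, edgeR and TAIR10. Neither strand use nor the counting of reads that match both assemblies is stated: not given in the sources used here. In the low values, 100% of steps came out as whole reads within 0.1 of a read, which gave the depth per line.

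Contigs, CPM summed per Arabidopsis locus and R to S ratios (R-assembly over S-assembly sum) were kept at 1 CPM in 3 of 7 lines and tested with limma 3.58.1 (trend, two-sided, R 4.3.3) on log2 values with 0.5 CPM added, adjusted over all features. Alternatives were edgeR 4.0.16 and DESeq2 1.42.0 on the recovered reads, other pseudocounts and filters, rescaling, a Rubisco covariate and lines left out. The limma steps were tested on simulated data. Named were the 12 largest called sums and 8 largest called contigs in each direction, 8 loci with opposite R and S changes, up to 4 called contigs per list by p, up to 4 loci in each of 3 windows, and IAA2. Members and lists were chosen with earlier results of these data known. Intervals of reads cover counting error only. The genome sequence was not used here.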

Additional observations from a re-analysis of the deposited data

Results flagged for a closer look

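In 17 results, 1 line of cross B stood apart from the other 3 by more than Dixon's 95% critical value for 4 samples, which chance alone does in about 1 group in 20. In 9 of them 3 lines had no read and the 4th had 2 reads. This line was SP7, at 0.0147 CPM, for the sum of AT5G41240 and a contig of AT4G23160. It was SP9, at 0.0170 CPM, for the sum of AT5G55040 and for contigs of SAG101, AT5G66900 and AT4G15480. It was SRP1, at 0.0159 CPM, for contigs of PIN7, AT5G33406 and AT1G47620. These 9 are at the limit of depth.

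SP9 was high for GSTU10 (8.44 CPM, the other lines 5.19 to 5.54 CPM). It was low for the R-assembly contig of the M50 peptidase AT4G20310 (12.5 CPM, the others 25.7 to 28.0 CPM) and for the contig of AT5G05260 (3.31 CPM, the others 6.13 to 6.70 CPM). These last contigs belong to 1 assembled gene, although they carry different Arabidopsis loci.

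SRP1 was low for LTP3 (23.9 CPM, the others 31.4 to 31.8 CPM), and high for the MAF4 contig (0.963 CPM, the others 0.282 to 0.316 CPM) and for the ratio of AT2G25870 (3.23, the others 1.77 to 1.96). SP7 was high for AT4G12020 (1.06 CPM, the others 0.610 to 0.637 CPM). SP3 was low for an IAA2 contig (3.16 CPM, the others 4.42 to 4.56 CPM). Except for IAA2, each of these differences between the crosses was called with the line included.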

How the results depend on the processing

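With 1 CPM required in all 7 lines, 117 contigs and 19 sums were called, since features near 0 in 1 cross are then not tested. With 1 line left out the counts ran from 196 to 554 for contigs, 22 to 75 for sums and 77 to 252 for the ratio, and on the features of the full filter from 302 to 703, 23 to 93 and 77 to 253. There the counts that moved by over 1.5 times were 302 contigs without SP3 and 320 without SRP1, 42, 23, 25 and 34 sums without S207, SP3, SP7 and SRP1, and 82, 77, 93 and 253 ratios without SP3, SP7, SRP1 and S242. Without S205 and SP9 the counts were 251 contigs and 124 sums, or 713 and 223 on the full filter. The Rubisco covariate gave 1051 contigs and 307 sums, and DESeq2 gave 1689 contigs (801 higher) and 746 sums (366 higher). The cause was not tested. Of the contigs called without S242, 326 were higher and 127 lower. On the full filter these were 365 and 338, so the fall in lower calls came with the filter and the rise in higher calls did not. A contig silent in cross B cannot reach 1 CPM in 3 lines without a line of cross A. Loci with 1 contig per assembly gave 44 called ratios of 1690 tested. The difference in Rubisco share reversed to 0.68 points without S205, and ran from -0.88 to 0.68 over the lines left out. The 4 IAA2 contigs reversed without S242 to -0.18, -0.16, -0.14 and -0.17, and were highest without S205, at 0.36, 0.40, 0.30 and 0.38. Of 111 called results named, 50 passed the filter through 1 cross alone, and of the other 61, 31 kept their call with each line left out on the full filter. No called result reversed. No paired analysis was possible because the lines carry names of their own and no number shared between the crosses. At 3 reads, or 0.0204 to 0.0259 CPM, a level near 0 cannot be told from none.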

Other observations

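S242 resembled cross B at many loci in its R to S ratio. Without this line 127 further ratios were called, 78 of them lower in cross B. In all 78, S242 was nearer to the mean of cross B than to the mean of S205 and S207, by the way these loci were found. In 27 it lay within the range of cross B. Of the 78, 37 lie on Arabidopsis chromosome 1 and 29 on chromosome 3. These chromosomes hold 1155 and 832 of the 4284 loci with a tested ratio. At AT1G11880 the ratio was 6.32 in S205 and 6.67 in S207, 0.264 in S242, and 0.285 to 0.305 in cross B. At AT1G02270 it was 3.02 and 2.93, 0.124, and 0.129 to 0.142. At AT3G09500 it was 0.833 and 0.807, 0.0400, and 0.0411 to 0.0441. At AT1G07080 it was 20.51 and 19.1, 0.0387, and 0.0277 to 0.0375. These 4 loci were chosen after their values were seen, and the groups are not those of the study, so no test was made. The lines of cross A were thus not uniform in the contigs they matched, and the comparison between crosses covers what S205, S207 and S242 shared.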
